A study of Drosophila melanogaster with 12 samples.

Results

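All 12 RNA-seq libraries of the study were ordered by the number of copies of one African genome that the flies carried. The rule counted copies of the genome of ZI418N, a line from Zambia, and put 6 of 12 libraries at 0 copies, 4 at 1 copy and 2 at 2 copies. The 0-copy libraries came from the Swedish lines SU26 (SU26xSU26) and SU58 (SU58xSU58) and their F1 hybrid SU26xSU58, the 1-copy libraries from the F1 hybrids SU26xZI418N and SU58xZI418N, and the 2-copy libraries from ZI418N itself (ZI418NxZI418N). Every library was made from Malpighian tubules of adult Drosophila melanogaster females aged 6 days, and each genotype had 2 libraries that the labels call biological replicates. The ordering asks which tubule transcripts follow the dose of the Zambian genome, and where the single copy in a hybrid leaves the level. No measured value was used to place a library. Since both 2-copy libraries belong to 1 line, Zambian origin and the genotype of this line cannot be told apart, and F1 hybrids are the only genotypes with 1 copy.

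Malpighian tubules are the excretory and osmoregulatory organ of the fly. Principal cells pump protons with a V-ATPase and move cations, stellate cells carry chloride and water, and both cell types clear organic solutes and toxins with transporters, cytochrome P450 enzymes and conjugating enzymes. An F1 hybrid holds one genome from each parent in the same cells, and where alleles act additively its transcript level lies midway between those of its parents. The RNA was measured in whole tubules, so fewer cells of a type and less RNA per cell cannot be told apart.

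Summed gene counts ranged from 30834175 in SU58xSU58 replicate 2 to 43479929 in SU26xSU58 replicate 1. Levels are in CPM, gene counts scaled to a common library size with TMM factors, and the CPM of 1 gene is compared across libraries only. The tubule markers were present in every library: the list of 8 principal cell markers summed to 5694 to 12866 CPM with 0 copies, 6684 to 7857 CPM with 1 copy and 7970.2 to 8677 CPM with 2 copies, and the 8 stellate cell markers to 729 to 914, 904 to 1178 and 1181 to 1249 CPM. The stellate sums, which include genes described below, overlapped between 0 and 1 copy and not between 1 and 2 copies. The GABA receptor gene Rdl, a stellate marker here, stayed at or under 0.388 CPM. Germ line and eggshell transcripts summed to 668 CPM in SU26xZI418N replicate 2 and 327 CPM in SU58xSU58 replicate 1, and to at most 37.1 CPM in each of the others. On the first principal component, which held 33.5% of the variance, the 2-copy libraries lay on the opposite side from all 0-copy libraries, 3 of the 1-copy libraries lay between them, and SU26xZI418N replicate 2 lay beyond ZI418N. The libraries with high germ line or eggshell sums, SU26xZI418N replicate 2 and SU58xSU58 replicate 1, were left out in turn and together as a check.

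Transcripts followed the Zambian genome in both directions and in near-equal number. Of 9302 genes tested, 1573 (16.9%) changed with the number of ZI418N copies, 762 upward (8.19%) and 811 downward (8.72%), by edgeR's quasi-likelihood test of the slope over copies with Benjamini-Hochberg adjustment. The slope is a log2 change per copy, given with an approximate standard error, and the change over 2 copies is its double on the log2 scale. Over the 2 copies, 287 genes rose and 350 fell at least 2-fold, and 121 rose and 146 fell at least 4-fold. The median size of the slope among called genes was 0.39. For 332 genes (3.57%) the 0-, 1- and 2-copy libraries did not overlap, with 168 rising (1.81%) and 164 falling (1.76%). Calls were spread over the genome, with 17.1% of tested genes on chromosome arm 2L, 17.4% on 2R, 16.9% on 3L, 15.9% on 3R, 17.7% on X and 19.1% of the 68 tested genes on chromosome 4.

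This count rests on how the spread is measured and on both ZI418N libraries. It was 838 without ZI418NxZI418N replicate 1, 987 without replicate 2, 990 without the Swedish hybrid and 127 when the libraries of a genotype were summed so that 6 genotypes were compared, and 2501 when genotypes were fitted by their own means and the spread came from replicates alone. All 127 genes called from genotype sums were among the 1573. The adjusted p of the genotype sums is given beside the genes described in full as the stricter value. Where a called gene below is printed without it, the trend was not called with genotype sums, except for Cyp6a13, Cyp9b2 and CG14957. Without SU26xZI418N replicate 2 the count was 1766, and without both doubted libraries 1618.

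The largest slope among the 10 named rises was that of spz (FBgn0003495; 3R, 27064990 to 27070070, minus strand, Ensembl annotation of BDGP6), which encodes Spätzle, the ligand of the Toll receptor. It stood at 0.165 to 0.585 CPM (median 0.392) in the 6 libraries with 0 copies, at 7.93 and 19.9 CPM in SU26xZI418N and 7.45 and 6.82 CPM in SU58xZI418N, and at 38.1 and 46.1 CPM in ZI418N. Libraries of different copy number do not overlap in any of the named rises and falls, because this was a condition of their choice. SU26xZI418N replicate 2 was the highest of the 1-copy libraries for spz. The slope was 3.67 ± 0.36 per copy (adjusted p = 5.43e-05 by edgeR; 0.0333 with genotype sums). The mean with 2 copies was 109.9-fold that with 0 copies.

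Next among the rises came a, or arc (FBgn0000008; 2R, 22136968 to 22172834, plus strand), with 3 to 5.31 CPM (median 3.43) at 0 copies, 10.6 and 14.7 CPM in SU26xZI418N and 22 and 18.7 CPM in SU58xZI418N, and 29.5 and 40.5 CPM in ZI418N. The slope of a was 1.74 ± 0.16 (edgeR adjusted p = 3.14e-05, and 0.0314 with genotype sums). PLCXD (FBgn0032402; 2L, 12049418 to 12052049, plus strand), which encodes a protein with the X domain of phosphatidylinositol-specific phospholipase C, stood at 37.5 to 63.1 CPM (median 45.6) with 0 copies, 179 and 145 CPM in SU26xZI418N and 217 and 178 CPM in SU58xZI418N, and 282 and 320.1 CPM in ZI418N. Its levels were 6.37-fold higher with 2 copies than with 0 (slope 1.48 ± 0.14, edgeR adjusted p = 4.23e-05; 0.0335 with genotype sums). PLCXD shares 11.9% of its exon bases with another gene, so part of its reads may belong to that gene.

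The cytochrome P450 genes Cyp6t1 and Cyp6a16 also rose. Cyp6t1 (FBgn0031182; X, 21517434 to 21519218, minus strand) stood at 9.48 to 12.5 CPM (median 11.3) with 0 copies, at 39.1 and 34.2 CPM in SU26xZI418N and 39.5 and 39.7 CPM in SU58xZI418N, and at 58.7 and 57.7 CPM in ZI418N. Its levels were tight within each copy number, and the slope was 1.33 ± 0.12 (edgeR adjusted p = 2.4e-05; 0.0318 with genotype sums). Cyp6a16 stood at 51.5 and 45.1 CPM in SU26xSU26 and 139 CPM at most in the other 0-copy libraries, at 331 and 288 CPM in SU26xZI418N and 366 and 385 CPM in SU58xZI418N, and at 568 and 624 CPM in ZI418N (slope 1.39 ± 0.20, edgeR adjusted p = 0.000623; 0.0783 with genotype sums). NLaz, which encodes a lipocalin, a secreted carrier of small lipophilic molecules, rose from 137 to 220.3 CPM (median 151) through 412 and 346 CPM in SU26xZI418N and 398 and 382 CPM in SU58xZI418N to 645 and 503 CPM in ZI418N. Its mean was 3.37-fold higher with 2 copies (slope 0.94 ± 0.10, edgeR adjusted p = 9.94e-05; 0.0454 with genotype sums).

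Other rises were uneven among the 0-copy genotypes. Ace, the acetylcholinesterase gene, stood at 6.94 and 8.15 CPM in SU26xSU26, 30.4 and 28.1 CPM in SU58xSU58 and 29.8 and 28.7 CPM in SU26xSU58, at 52.8 and 44.6 CPM in SU26xZI418N and 40.4 and 44.6 CPM in SU58xZI418N, and at 101 and 63.2 CPM in ZI418N. The ZI418N libraries differed from each other by more than the hybrids did, and the call (slope 0.97 ± 0.23, edgeR adjusted p = 0.0123) was lost without ZI418NxZI418N replicate 1 (0.0817) and with genotype sums (0.184). CG16898 reached 705 and 899 CPM in ZI418N against 63.8 to 382 CPM with 0 copies, where SU26xSU26 was the high genotype, and its call (adjusted p = 0.0119) was lost without the Swedish hybrid (0.0565). CG12581 rose from 5.44 CPM (median, n = 6) to 21.1 CPM (n = 4) and 29 CPM (n = 2), and CG13308 from 24.5 to 50.4 and 94.1 CPM, with adjusted p of 0.000263 and 0.00937 by edgeR and 0.0588 and 0.169 with genotype sums. CG12581 shares 20.3% of its exon bases with another gene.

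**Figure D1:**
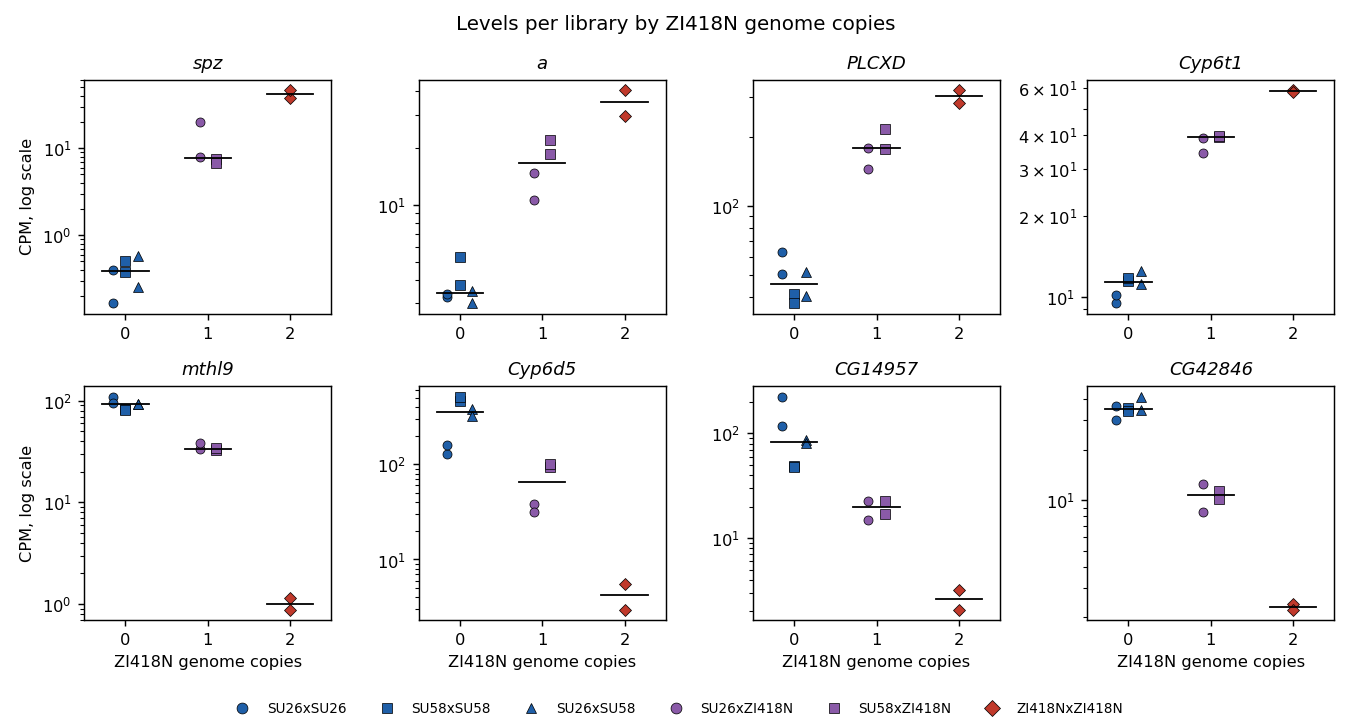
CPM on a log axis in each of the 12 libraries against the number of ZI418N copies for 4 genes that rose (top row) and 4 that fell (bottom row), with a marker per genotype and a horizontal line at the median of each copy number. The genes were chosen so that the libraries with 1 copy lie between those with 0 and 2 copies without overlap. For spz the levels go from 0.165 to 0.585 CPM to 6.82 to 19.9 CPM and to 38.1 and 46.1 CPM.

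Among the 10 named falls, the steepest was that of Cyp6d5 (FBgn0038194; 3R, 14029228 to 14031483, plus strand), another cytochrome P450 gene. It stood at 128 and 161 CPM in SU26xSU26, 462 and 513 CPM in SU58xSU58 and 383 and 320.4 CPM in SU26xSU58. The levels were 38 and 31.7 CPM in SU26xZI418N and 93.4 and 101 CPM in SU58xZI418N, and 5.53 and 2.96 CPM in ZI418N. With 0 copies SU26xSU26 was the lowest genotype and with 1 copy SU26xZI418N was the lower, and the mean with 0 copies was 77.2-fold that with 2 (slope -2.89 ± 0.39, edgeR adjusted p = 0.000407; 0.0624 with genotype sums).

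The methuselah-like receptor gene mthl9 (FBgn0035131; 3L, 329822 to 332309, minus strand) was nearly silent in ZI418N. It stood at 81.7 to 109 CPM (median 92.3) with 0 copies, 33.8 and 38.3 CPM in SU26xZI418N and 32.8 and 34.1 CPM in SU58xZI418N, and 0.88 and 1.14 CPM in ZI418N, 91.4-fold less than with 0 copies. The 4 hybrid libraries were almost equal to each other and closer on the log2 scale to 0 than to 2 copies (slope -2.46 ± 0.40, edgeR adjusted p = 0.00155; 0.103 with genotype sums). CG42846 (FBgn0262035; 3L, 230971 to 231604, minus strand) had the lowest adjusted p of the named genes, 2.75e-07 by edgeR and 0.00499 with genotype sums. It stood at 29.9 to 41.3 CPM (median 35.1) with 0 copies, 12.4 and 8.52 CPM in SU26xZI418N and 11.4 and 10.2 CPM in SU58xZI418N, and 2.41 and 2.22 CPM in ZI418N, a slope of -1.91 ± 0.09.

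Transporters were among the falls. Tret1-2, which encodes a trehalose transporter, stood at 15.2 to 42.5 CPM (median 19.9) with 0 copies, 9.65 and 7.92 CPM in SU26xZI418N and 5.54 and 2.29 CPM in SU58xZI418N, and 0.653 and 0.776 CPM in ZI418N (slope -2.40 ± 0.31, edgeR adjusted p = 0.000338; 0.039 with genotype sums). Nha1, which encodes a sodium/proton antiporter, stood at 12.5 to 23.9 CPM (median 19.2), 8.84 and 7.47 CPM in SU26xZI418N and 5.39 and 4.55 CPM in SU58xZI418N, and 4.37 and 0.194 CPM in ZI418N. The ZI418N libraries of Nha1 were far apart, and the higher of them lay just under the lowest hybrid library (slope -1.54 ± 0.32, edgeR adjusted p = 0.00688; 0.0214 with genotype sums). Damm, a caspase gene, fell from 38.1 to 77.8 CPM (median 57.4) through 28.4 and 24.5 CPM in SU26xZI418N and 11.3 and 15.8 CPM in SU58xZI418N to 2.84 and 2.47 CPM (slope -2.01 ± 0.23, edgeR adjusted p = 0.000136; 0.0454 with genotype sums), and shares 29.6% of its exon bases with another gene.

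Cyp12d1-d and Cyp12d1-p, near-identical neighbouring P450 copies in which reads of one may be counted for the other, both fell. Cyp12d1-d stood at 270.2 to 342 CPM (median 291) with 0 copies, 166 and 135 CPM in SU26xZI418N and 96.9 and 93 CPM in SU58xZI418N, and 8.37 and 3.05 CPM in ZI418N (slope -2.30 ± 0.40, edgeR adjusted p = 0.00227; 0.099 with genotype sums). Cyp12d1-p stood at 390.2 to 813 CPM (median 589), 322 and 255 CPM in SU26xZI418N and 389 and 361 CPM in SU58xZI418N, and 114 and 93 CPM (slope -1.18 ± 0.16, adjusted p = 0.000388; 0.0609), so that the drop to ZI418N was 52.2-fold for the first copy and 5.84-fold for the second. The remaining falls were CG14957, CG8539 and CG13324, with medians of 83.3, 29 and 26.1 CPM at 0 copies, 19.7, 13.4 and 12.8 CPM at 1 copy, and 2.64, 1.39 and 2.1 CPM at 2 copies. Of the 20 genes with the largest ordered rises and falls, 10 were still called with genotype sums: spz, a, PLCXD, Cyp6t1 and NLaz among the rises, and CG14957, Tret1-2, Damm, CG42846 and Nha1 among the falls.

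Among the tubule's own transport genes, the aquaporin genes Prip and Drip rose with ZI418N copies, and 1 of 22 proton pump genes was called. Of 29 genes of ion and water transport, 5 rose and 5 fell (17.2% each, against 8.19% and 8.72% of all genes; median slope 0.00, against 0.01 over all genes). The aquaporin gene Prip (FBgn0033635; 2R, 11436243 to 11442216, plus strand), also a stellate cell marker here, stood at 105 to 123 CPM (median 109) with 0 copies, 173 and 155 CPM in SU26xZI418N and 159 and 165 CPM in SU58xZI418N, and 217 and 207 CPM in ZI418N. Its groups did not overlap, and its slope of 0.48 ± 0.04 (edgeR adjusted p = 1.07e-05) held with genotype sums (0.0252). Another aquaporin gene, Drip, stood at 194 to 249 CPM (median 206), 274 and 221 CPM in SU26xZI418N and 261 and 278 CPM in SU58xZI418N, and 346 and 371 CPM in ZI418N, with both ZI418N libraries above all others and the lower hybrid library within the 0-copy range (slope 0.35 ± 0.06, edgeR adjusted p = 0.00127; 0.088 with genotype sums).

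Irk2, which encodes an inward rectifier potassium channel, stood at 174 to 200.2 CPM (median 184) with 0 copies, 230.3 and 176 CPM in SU26xZI418N and 251 and 244 CPM in SU58xZI418N, and 367 and 345 CPM in ZI418N. As in Drip, ZI418N stood apart from all other libraries and SU26xZI418N replicate 2 lay within the 0-copy range (slope 0.43 ± 0.06, edgeR adjusted p = 0.000528; 0.0586 with genotype sums). ClC-a, the stellate cell chloride channel gene, stood at 225 to 391 CPM (median 370.3) with 0 copies, 576 and 391 CPM in SU26xZI418N and 497 and 437 CPM in SU58xZI418N, and 554 and 499 CPM in ZI418N, with the hybrids overlapping ZI418N (slope 0.36 ± 0.10, edgeR adjusted p = 0.0264; 0.186 with genotype sums and 0.087 without ZI418NxZI418N replicate 1). The chloride channel gene ClC-b rose as well (21.5, 25.3 and 28.1 CPM as medians over 0, 1 and 2 copies; adjusted p = 0.00227).

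The 5 members of the ion and water list that fell were Nha1 and 4 others. These were the sodium/proton antiporter gene Nha2, from a median of 298 CPM with 0 copies to 208 CPM with 2 (edgeR adjusted p = 0.00412), the sodium/proton exchanger gene Nhe3 (53.3 to 43.3 CPM, adjusted p = 0.012), the potassium/chloride cotransporter gene kcc (15.9 to 8.42 CPM, 0.0137) and nrv2, a sodium pump subunit gene (7.47 to 3.74 CPM, 0.0116). The falls numbered 3 without either ZI418N library, and with genotype sums the list held 1 rise, Prip, and 1 fall, Nha1. The 1 V-ATPase gene called of 22 was VhaM9.7-c (29.9, 32.2 and 35.4 CPM, adjusted p = 0.0224, lost without either ZI418N library), and the median slope was -0.01.

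Of 8 stellate cell markers 3 rose (37.5%, against 8.19% of all genes) and 0 fell, with a median slope of 0.22: Prip, ClC-a and TyrR, the receptor for tyramine, which stood at 64.7 to 77.4 CPM with 0 copies, 73.2 and 72.2 CPM in SU26xZI418N and 94.5 and 97 CPM in SU58xZI418N, and 103 and 147 CPM in ZI418N (edgeR adjusted p = 0.00457; 0.0886 with genotype sums). The other stellate markers were not called, among them the transcription factor gene tsh at 47.6 to 59.2 CPM with 0 copies and 59.1 and 57.6 CPM in ZI418N, and the leucokinin receptor gene Lkr at 45.4 to 67 and 63.6 and 64.8 CPM. Of 8 principal cell markers 2 rose, Irk2 and the transcription factor gene ct (373 to 551 CPM as medians, adjusted p = 0.0391, lost in 12 of 21 alternatives). These 3 genes made up most of the summed stellate markers given above. The other 5 summed to 302 to 335 CPM with 0 copies, 286 to 369.5 CPM with 1 and 328 to 376 CPM with 2. These sums overlapped between all copy numbers. The urate oxidase gene Uro ranged from 1373 to 4204 CPM with 0 copies and stood at 2305 and 1792 CPM in ZI418N.

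**Figure D2:**
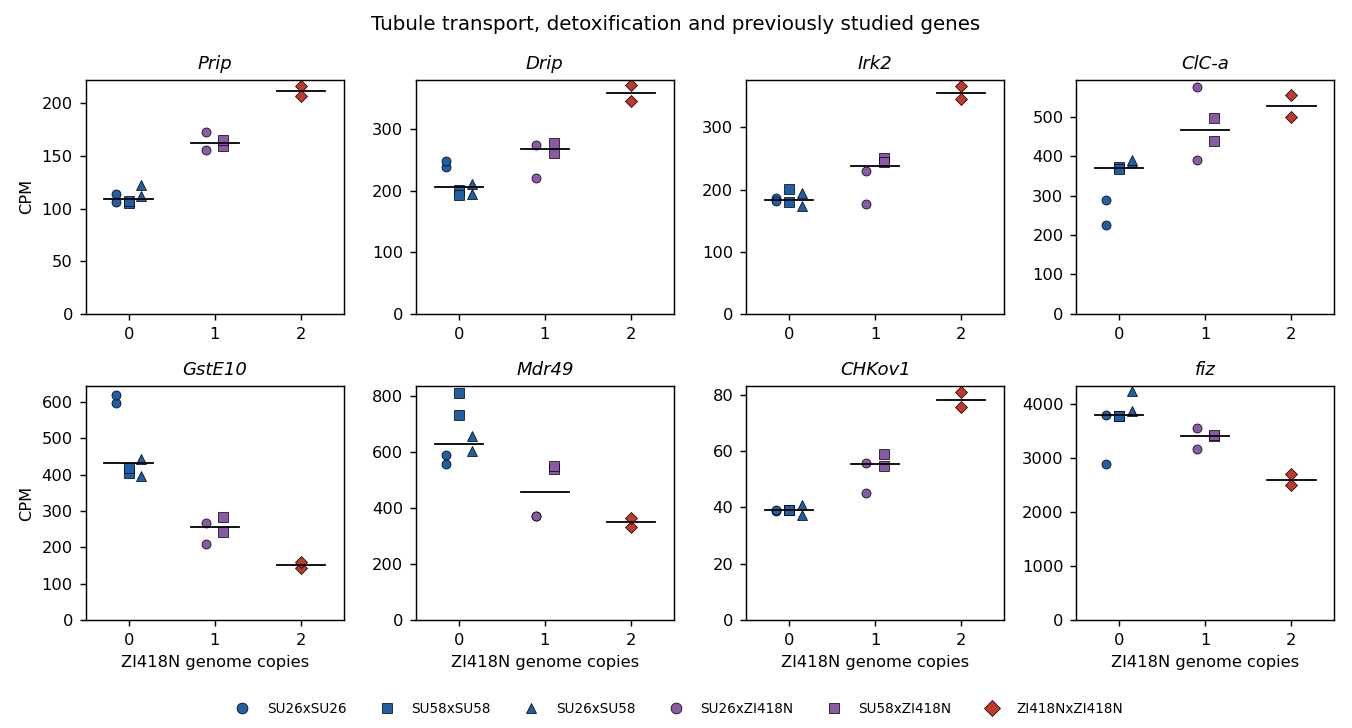
CPM on linear axes that start at 0 in each library against the number of ZI418N copies, for 4 transport genes that rose (top row) and 4 other genes (bottom row), with a marker per genotype and a line at the median of each copy number. Prip and CHKov1 rise in steps without overlap, Drip and Irk2 are set apart mainly in the 2-copy libraries, GstE10 falls to 144 and 159 CPM in ZI418N, and fiz overlaps between 0 and 1 copy.

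Of 24 transporters of organic solutes and metals 1 rose (4.17%, against 8.19% of all genes) and 4 fell (16.7%, against 8.72%), with a median slope of -0.08. The rise was Ctr1A, a copper importer gene, with 24 to 29.9 CPM (median 26) at 0 copies, 30.9 and 31.4 CPM in SU26xZI418N and 31.4 and 31.7 CPM in SU58xZI418N, and 37.8 and 39.5 CPM in ZI418N (edgeR adjusted p = 0.000394; 0.0676 with genotype sums). The falls included the ABC exporter gene Mdr49, at 558 to 812 CPM (median 631) with 0 copies, 372 and 374 CPM in SU26xZI418N and 539.6 and 551 CPM in SU58xZI418N, and 334 and 367 CPM in ZI418N (slope -0.47 ± 0.09, adjusted p = 0.00313; 0.12 with genotype sums). Mdr49 levels in SU26xZI418N lay close to those of ZI418N and levels in SU58xZI418N close to those of SU26xSU26. The organic anion transporter gene Oatp33Eb fell from 206 CPM to 133 CPM with 1 copy and 136 CPM with 2 (medians; adjusted p = 0.0175, lost without the Swedish hybrid at 0.0574). The 4 falls of the list were 2 without either ZI418N library, SU26xSU58 replicate 2, SU26xZI418N replicate 1 or either SU58xZI418N library, 1 without the Swedish hybrid and 0 with genotype sums.

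Of 17 hormone and amine receptors 3 rose and 2 fell (17.6% and 11.8%, against 8.19% and 8.72% of all genes), with a median slope of 0.08. With genotype sums 0 rose and 0 fell. Besides TyrR, the rises were Dh31-R, the receptor gene for the diuretic hormone DH31 (272, 313 and 374 CPM, edgeR adjusted p = 0.0336) and sNPF-R, the receptor gene for short neuropeptide F, which stayed low (0 to 0.565 CPM with 0 copies, 0.896 to 2.1 CPM with 1 and 2.5 and 3.79 CPM with 2; adjusted p = 0.0103). The neuropeptide F receptor gene NPFR fell from 36.2 to 90.6 CPM (median 49.4) with 0 copies through 42.1 and 22.3 CPM in SU26xZI418N and 52.6 and 25.5 CPM in SU58xZI418N to 12.1 and 15.1 CPM in ZI418N. Levels of NPFR overlapped between 0 and 1 copy and not between 1 and 2, and the call (slope -0.97 ± 0.21, adjusted p = 0.00816) was lost without ZI418NxZI418N replicate 1 (0.0523) and with genotype sums (0.0791). The other fall, Oct-TyrR, stood at 0.0576 to 1.3 CPM with 0 copies and at or under 0.127 CPM elsewhere (adjusted p = 0.0409), and its call was lost in most alternatives.

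Falls outnumbered rises in each family of detoxification enzymes. Of 71 cytochrome P450 genes 21 fell (29.6%, against 8.72% of all genes) and 5 rose (7.04%, against 8.19%), with a median slope of -0.16. The summed CPM of the list was 16876 to 23521 with 0 copies, 12849 to 18924 with 1 and 13111 to 13646 with 2. Of the 8 P450 genes linked to insecticide resistance, all also members of the larger list, 5 fell and 0 rose (median slope -1.23): Cyp12d1-p, Cyp12d1-d, Cyp6w1, Cyp12a4 and Cyp6g1. With genotype sums 5 P450 genes fell and 1 rose, and 0 of the 8 were called. Without ZI418NxZI418N replicate 1 the P450 rises numbered 3 and the falls 14.

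Within the family, Cyp6w1 stood at 9.45 to 34.3 CPM (median 12.2) with 0 copies, 0.752 and 0.747 CPM in SU26xZI418N and 3.79 and 4.79 CPM in SU58xZI418N, and 0.908 and 1.69 CPM in ZI418N. Its hybrids were already at or near the ZI418N level, SU26xZI418N lying below both ZI418N libraries and SU58xZI418N above both (slope -2.04 ± 0.39, edgeR adjusted p = 0.00394; 0.13 with genotype sums). Cyp12b2, which had the lowest adjusted p of the falls after Cyp4ae1, stood at 20 to 32.4 CPM (median 28.6), 17.7 and 14.7 CPM in SU26xZI418N and 16.4 and 16.5 CPM in SU58xZI418N, and 7.52 and 8.23 CPM in ZI418N (slope -0.85 ± 0.09, adjusted p = 6.5e-05; 0.0356 with genotype sums). Cyp4ae1 fell from 45.4 through 24.2 to 13.8 CPM without overlap (medians; adjusted p = 1.07e-05; 0.0214 with genotype sums), but 88.3% of its exon bases lie in another gene. Cyp6a13 (89.9, 49.8 and 22.7 CPM; adjusted p = 0.000137), Cyp28a5 (19.7, 9.58 and 1.79 CPM; 0.000263) and Cyp9b2 (156, 109.9 and 68.1 CPM; 0.000338) fell in ordered steps too.

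Among conjugating enzymes the falls outnumbered the rises as well. Of 29 glutathione S-transferase genes 8 fell (27.6%, against 8.72% of all genes) and 2 rose (6.9%, against 8.19%), with a median slope of -0.14. GstE10 stood at 397 to 619 CPM (median 430.4) with 0 copies, 266 and 210.1 CPM in SU26xZI418N and 284 and 244 CPM in SU58xZI418N, and 144 and 159 CPM in ZI418N, without overlap and with SU26xSU26 the highest genotype (slope -0.85 ± 0.09, edgeR adjusted p = 9.45e-05; 0.0433 with genotype sums). GstD1 fell from 1099 to 1343 CPM (median 1263) through 935 and 784 CPM in SU26xZI418N and 928 and 1059 CPM in SU58xZI418N to 661 and 690.4 CPM in ZI418N (slope -0.43 ± 0.05, adjusted p = 0.000206; 0.039 with genotype sums). These were the 2 GST calls with genotype sums. Without ZI418NxZI418N replicate 1 there were 4 falls and 1 rise, and the median slope was -0.06. Without the Swedish hybrid 5 fell and 1 rose, and without SU26xSU58 replicate 2 there was 1 rise. GstE5 fell as well (77, 59.9 and 43.7 CPM; adjusted p = 0.000434), while GstD9 (14.9, 23.3 and 27.2 CPM; 0.00214) and GstD5 rose.

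UDP-glycosyltransferase genes fell in 9 of 29 cases (31.0%, against 8.72% of all genes) and rose in 0, with a median slope of -0.37. Ugt302E1 stood at 22.5 to 59.1 CPM (median 41.5) with 0 copies, 13.7 and 12.6 CPM in SU26xZI418N and 25 and 27.6 CPM in SU58xZI418N, and 1.96 and 2.49 CPM in ZI418N, with SU58xZI418N overlapping SU26xSU26 (slope -1.77 ± 0.30, edgeR adjusted p = 0.00197; 0.105 with genotype sums). Ugt36E1 (42.2, 28.1 and 13.3 CPM; adjusted p = 0.000249) and Ugt49B1 (494, 357 and 262 CPM; 0.000424) fell without overlap between copy numbers. With genotype sums 0 of the 29 were called, and 5 fell without ZI418NxZI418N replicate 1. The summed CPM of the list overlapped between all copy numbers, from 2746 to 4337 with 0 copies to 2843 to 3133 with 2.

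**Figure D3:**
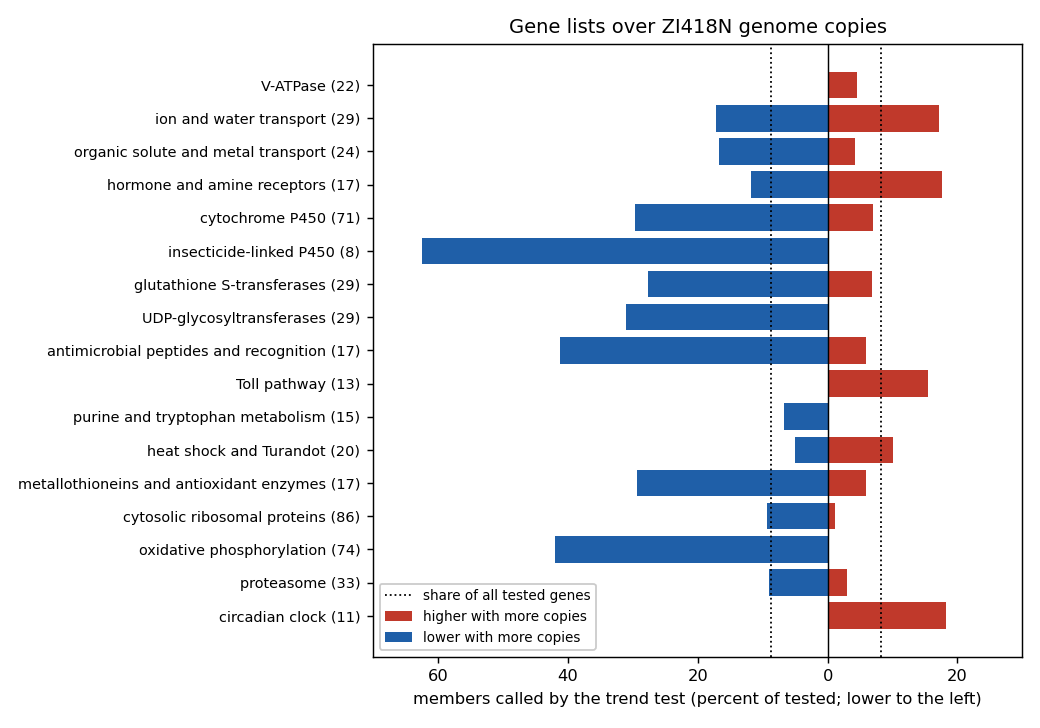
Percent of the tested members of each gene list that were called by the trend test, to the right for genes higher and to the left for genes lower with more ZI418N copies, with the number tested in brackets and dotted lines at the shares of all tested genes (8.19% higher and 8.72% lower). Lower calls reach 62.5% of the 8 insecticide-linked P450 genes and 41.9% of the oxidative phosphorylation genes.

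Genes of the mitochondrial respiratory chain were lower with more ZI418N copies, each by a small amount. Of 74 tested genes of oxidative phosphorylation 31 fell (41.9%, against 8.72% of all genes) and 0 rose. Of the 74 slopes 71 were negative, with a median of -0.17. The complex I gene ND-SGDH stood at 132 to 165 CPM (median 146) with 0 copies, 122 and 108 CPM in SU26xZI418N and 120.3 and 128 CPM in SU58xZI418N, and 102 and 105 CPM in ZI418N (edgeR adjusted p = 0.0021). Its groups did not overlap, though the 0-copy libraries spread more widely than the distance between the medians of 0 and 1 copy. ND-75 of complex I (447, 369.5 and 338 CPM; adjusted p = 0.00521) and SdhA of complex II (638, 536 and 477 CPM; 0.00438) fell too. The list sums were 20584 to 27446 CPM with 0 copies, 18814 to 20929.7 CPM with 1 and 18163 to 19555 CPM with 2, and SU26xSU26 held the highest ones. The count was 8 without ZI418NxZI418N replicate 1, 22 without replicate 2, 20 without the Swedish hybrid and 0 with genotype sums. The median slope lay between -0.20 and -0.17 in all of these.

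Of 86 cytosolic ribosomal protein genes 8 fell (9.3%) and 1 rose (1.16%), a share of falls near that of all genes, with a median slope of -0.07. RpS19a stood at 624 to 699.6 CPM (median 659) with 0 copies, 586 and 533 CPM in SU26xZI418N and 579 and 581 CPM in SU58xZI418N, and 499.6 and 503 CPM in ZI418N (edgeR adjusted p = 0.00109). Proteasome genes fell in 3 of 33 cases (9.09%, against 8.72% of all genes) and rose in 1, with 31 negative slopes and a median of -0.11. The proteasome sums were 3473 and 3567 CPM in SU26xSU26 and 2552 to 2862 CPM in the other 0-copy libraries. They were 2587 to 2802 CPM with 1 copy and 2492 and 2616 CPM with 2, so SU26xSU26 alone stood apart. Prosbeta1 went from 69.2 to 57.8 and 51.4 CPM (adjusted p = 0.00908). Without ZI418NxZI418N replicate 1, 2 ribosomal protein genes and 1 proteasome gene fell, without replicate 2 5 and 1, and without SU26xSU58 replicate 1 5 proteasome genes. With genotype sums 0 genes of either list were called.

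Immune genes moved in both directions. Of 13 Toll pathway genes 2 rose (15.4%, against 8.19% of all genes) and 0 fell: spz, described above, and pll, which encodes the kinase Pelle (12.4, 13.9 and 15.7 CPM; edgeR adjusted p = 0.0103, lost without ZI418NxZI418N replicate 1 at 0.0574). The antifungal peptide gene Drs, a known target of Toll signalling, stood at 54.4 to 149 CPM (median 63.2) with 0 copies, 218 and 174 CPM in SU26xZI418N and 228 and 142 CPM in SU58xZI418N, and 218 and 296 CPM in ZI418N. Only SU26xSU58 replicate 2 among the 0-copy libraries reached the hybrids, and the hybrids overlapped ZI418N (slope 0.96 ± 0.18, adjusted p = 0.0035; 0.0676 with genotype sums). Of the 17 tested genes for antimicrobial peptides and peptidoglycan recognition, Drs was the 1 that rose (5.88%, against 8.19% of all genes). From this list 7 fell (41.2%, against 8.72%), and the median slope was -0.83. The summed CPM of the list, Drs included, went the other way. It was 174 to 273 with 0 copies, 247 to 333 with 1 and 331 to 396 with 2. The falls numbered 3 without ZI418NxZI418N replicate 1, 4 without either SU26xSU26 library, SU26xZI418N replicate 1 or either SU58xZI418N library, 4 with the replicate block and 0 with genotype sums.

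Most of those 7 were expressed at a low level. PGRP-LF, a negative regulator of peptidoglycan sensing, went from 11.2 to 25.3 CPM (median 12.7) through 8.33 and 8.94 CPM in SU26xZI418N and 9.38 and 7.48 CPM in SU58xZI418N to 5.34 and 4.27 CPM in ZI418N (edgeR adjusted p = 0.00127; 0.0776 with genotype sums), but 44.4% of its exon bases lie in another gene. PGRP-LA fell from 22.5 through 16.8 to 12.2 CPM (medians; adjusted p = 0.0115). The antimicrobial peptide gene Mtk stood at 0.269 to 4.26 CPM with 0 copies and at 0.17 and 0.138 CPM in ZI418N (adjusted p = 0.0103), and DptA reached 12.7 CPM in SU26xSU26 replicate 1 and at most 2.13 CPM in each other library. The DptA call (adjusted p = 0.0465) was lost in 14 of 21 alternatives.

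Of 20 heat shock and Turandot genes 2 rose (10.0%) and 1 fell (5.0%), shares near those of all genes. Without SU26xSU26 replicate 2 the rises numbered 7. Hsp68, an inducible chaperone gene, stood at 0.958 to 5.5 CPM with 0 copies, 2.71 and 1.82 CPM in SU26xZI418N and 3.79 and 3.94 CPM in SU58xZI418N, and 24.5 and 38.8 CPM in ZI418N, so that 1 copy left it at the 0-copy level (slope 1.54 ± 0.29, edgeR adjusted p = 0.00333; 0.0957 with genotype sums). The mitochondrial chaperone gene Hsc70-5 (313, 242 and 226 CPM; adjusted p = 0.0336, lost in 7 alternatives) fell. CG4456, of which 90.1% of exon bases lie in another gene, was called as a rise at 0.0473 and lost the call in 15 alternatives.

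Of 17 metallothionein and antioxidant genes 5 fell (29.4%, against 8.72% of all genes) and 1 rose (5.88%, against 8.19%), with a median slope of -0.18. Without ZI418NxZI418N replicate 1, 3 fell and 0 rose, and with genotype sums 0 were called. The extracellular superoxide dismutase gene Sod3 stood at 56.2 to 92.5 CPM (median 83.3) with 0 copies, 49.5 and 57.5 CPM in SU26xZI418N and 56.1 and 62.4 CPM in SU58xZI418N, and 28.5 and 27.9 CPM in ZI418N, with SU26xSU26 at the level of the hybrids (slope -0.66 ± 0.10, edgeR adjusted p = 0.00127; 0.0901 with genotype sums). The mitochondrial superoxide dismutase gene Sod2 fell from 121 through 97.7 to 81.9 CPM (adjusted p = 0.0111), and the metallothionein genes MtnE (0.577 to 2.48 CPM with 0 copies, 0.199 and 0.138 CPM in ZI418N; 0.00755) and MtnD (0.277 to 0.991 and 0.17 and 0.0831 CPM; 0.00899) fell at low levels. Among 15 genes of purine and tryptophan metabolism 0 rose and 1 fell (6.67%, against 8.72% of all genes). The fall was the eye-pigment ABC transporter gene w (511, 413 and 335 CPM; adjusted p = 0.00705; 0.131 with genotype sums).

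Of 11 circadian clock genes 2 rose (18.2%, against 8.19% of all genes) and 0 fell, and with genotype sums 0 were called. The gene cry, which encodes the blue-light photoreceptor cryptochrome, stood at 422 to 521 CPM (median 478) with 0 copies, 647 and 539 CPM in SU26xZI418N and 595 and 611 CPM in SU58xZI418N, and 669 and 679.6 CPM in ZI418N, without overlap (slope 0.27 ± 0.05, edgeR adjusted p = 0.00189; 0.0969 with genotype sums), and 17.8% of its exon bases lie in another gene. The kinase gene sgg (448, 495 and 614 CPM; adjusted p = 0.0179) lost its call without ZI418NxZI418N replicate 2 (0.127).

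Of 69 tested markers of other tissues 9 were called (13.0%), against 16.9% of all genes. Of 16 germ line and eggshell genes 0 rose and 2 fell, the chorion gene Cp7Fb (1.62 to 2.81 CPM with 0 copies and 0.255 and 0.499 CPM in ZI418N; edgeR adjusted p = 0.00334) and the vitelline membrane gene Vm26Ab, which reached 68.1 CPM in SU58xSU58 replicate 1 and at most 0.401 CPM in each other library. Without that library the Vm26Ab slope was -0.23 (adjusted p = 0.865 by edgeR). Of 6 fat body and 6 hemocyte genes 0 were called. Of 14 muscle genes the actin gene Act87E fell (7.1 to 4.9 CPM; adjusted p = 0.0399). Of 7 genes of neurons and photoreceptors norpA rose (25.5 to 33.7 CPM; 0.0384) and the synaptic genes nSyb (5.46 to 1.22 CPM; 0.00622) and Syt1 fell. Of 17 gut enzyme genes LysD rose and Jon99Ciii fell (0.0434 and 0.0412), the first with 0.134 to 35.5 CPM over the hybrids.

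The salivary gland marker LysP, a lysozyme gene, stood at 130.5 and 17.2 CPM in ZI418N, at 24 CPM in SU26xZI418N replicate 2 and 74.2 CPM in SU58xZI418N replicate 1, and at or under 0.0798 CPM elsewhere (edgeR adjusted p = 0.0174; 0.0937 with genotype sums). LysD was high in these libraries as well (21.9 and 6.56 CPM in ZI418N, 19.2 and 35.5 CPM in the hybrids) and at or under 1.02 CPM in the others. Of the other salivary gland genes, sage was at or under 0.936 CPM, and fkh, which tubules also express, ranged from 282 to 456 CPM.

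Genes reported in earlier work to differ between African and other populations gave 1 rise and 2 falls among 5 tested (20.0% and 40.0%, against 8.19% and 8.72% of all genes). The list was chosen with earlier results of these data known. With genotype sums it held 1 rise and 0 falls. CHKov1 (FBgn0045761; 3R, 25323156 to 25329316, minus strand) stood at 37.5 to 40.7 CPM (median 39) in the 0-copy libraries, at 55.9 and 45.2 CPM in SU26xZI418N and 59.1 and 54.9 CPM in SU58xZI418N, and at 80.8 and 75.5 CPM in ZI418N. The 0-copy libraries were nearly equal, each group was separate from the next, and the slope of 0.49 ± 0.04 (edgeR adjusted p = 1.59e-05; 0.0223 with genotype sums) held in every alternative run. Its mean was 39 ± 1.03 CPM (SD, n = 6) at 0 copies, 53.8 ± 6 CPM (n = 4) at 1 and 78.2 ± 3.76 CPM (n = 2) at 2.

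fiz, a gene of the glucose-methanol-choline oxidoreductase family, was lower in both ZI418N libraries than in any other. It stood at 2894 to 4234 CPM (median 3782) with 0 copies, 3541 and 3170.2 CPM in SU26xZI418N and 3394 and 3420.1 CPM in SU58xZI418N, and 2708 and 2491 CPM in ZI418N (slope -0.23 ± 0.06, edgeR adjusted p = 0.0178). SU26xSU26 replicate 1 lay below all hybrid libraries, and the call was lost without either ZI418N library, without the Swedish hybrid and with genotype sums (0.143). The DDT resistance gene Cyp6g1 stood at 6757 to 11949 CPM (median 9021) with 0 copies, 5377 and 4440.1 CPM in SU26xZI418N and 8197 and 9049.6 CPM in SU58xZI418N, and 4989 and 5553 CPM in ZI418N. SU26xZI418N was at the ZI418N level or under it and SU58xZI418N within the 0-copy range (slope -0.41 ± 0.12, adjusted p = 0.0382, lost in 8 of 21 alternatives; 0.254 with genotype sums). The metallothionein gene MtnA showed no call over copies: its levels were 142 to 1581 CPM with 0 copies, 29.3 and 27.3 CPM in SU26xZI418N and 475 and 688 CPM in SU58xZI418N, and at 370.2 and 1098 CPM in ZI418N (slope -0.26 ± 0.51, adjusted p = 0.758).

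The place of the hybrids between the ends was read on genes chosen without them. With the 8 libraries of 0 or 2 copies alone, 1192 genes (12.8%) differed, 599 higher (6.44%) and 593 lower (6.37%) with 2 copies by edgeR's quasi-likelihood test, and 555 of them differed by at least 2-fold. For 520 of the 555 (93.7%) the mean log2 level with 1 copy lay between those with 0 and 2. Where 0 marks the level with 0 copies and 1 that with 2, the median position of 1 copy was 0.63 on the log2 scale for the 261 genes that were higher with 2 copies and 0.39 for the 294 that were lower. In CPM the same medians were 0.46 and 0.55. On the log2 scale these medians lay nearer to whichever end had the higher level, and in CPM somewhat nearer to the end with the lower level. The medians of the 4 hybrid libraries taken singly were 0.56 to 0.64 for the first set and 0.32 to 0.48 for the second on the log2 scale. In CPM they were 0.385 and 0.398 in SU26xZI418N and 0.454 and 0.444 in SU58xZI418N for the first set. For the second set they were 0.636 and 0.682 in SU26xZI418N and 0.568 and 0.503 in SU58xZI418N. In CPM all 4 libraries lay on the same side of the midpoint in each set, and SU26xZI418N farther from it. On the log2 scale SU26xZI418N lay nearer to the midpoint. In the first set its medians were 0.562 and 0.610, against 0.627 and 0.642 in SU58xZI418N. In the second set they were 0.443 and 0.477, against 0.383 and 0.325. The 0-copy end was the mean of all Swedish libraries, not of each hybrid's own Swedish parent. The count of 1192 was 360 and 372 without ZI418NxZI418N replicate 1 and 2.

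**Figure D4:**
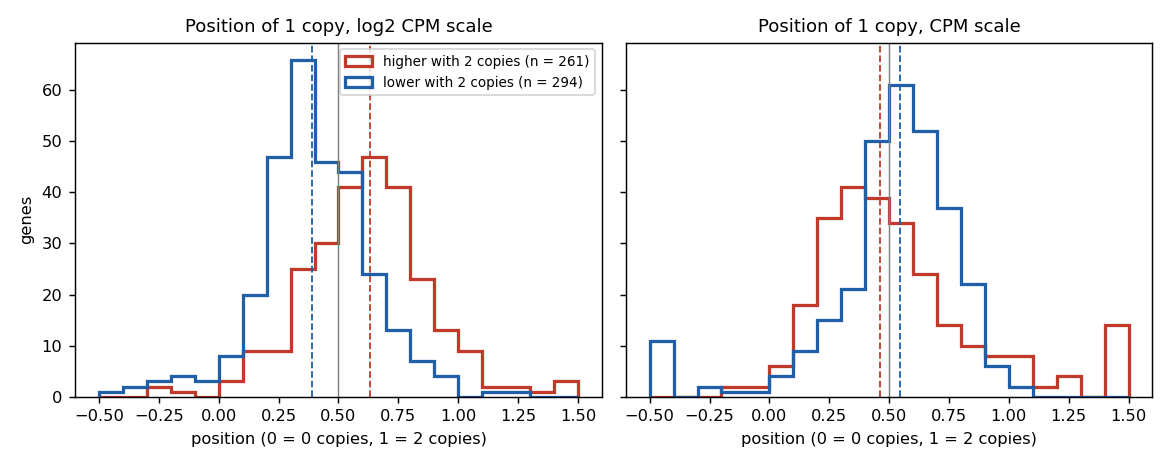
Number of genes by the position of the mean level with 1 copy between 0 copies (position 0) and 2 copies (position 1), on the log2 CPM scale (left) and the CPM scale (right), for the 261 genes higher and the 294 genes lower with 2 copies; dashed lines are medians, the grey line is the midpoint, and positions beyond the axis are drawn in the end bins. The medians are 0.63 and 0.39 on the left and 0.46 and 0.55 on the right.

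Few genes left the midpoint by test. At 1 copy 20 genes (0.215%) departed from the log2 midpoint of 0 and 2 copies, all 20 above it and 0 below (675 above and 284 below at an unadjusted p under 0.05), by edgeR's quasi-likelihood test. DESeq2 called 79 genes. Of the 20, 11 were lower and 9 higher with 2 copies than with 0, and 14 lay above and 6 below the midpoint in CPM. The log2 midpoint of unequal levels lies below their CPM midpoint, by the largest ratio where 1 end is near zero. A level midway in CPM therefore counts as above the log2 midpoint. In CG16800, CG32651 and Gr58a the mean at 1 end was 0 CPM. For mthl9 the departure was 1.85 ± 0.10 on the log2 scale (adjusted p = 6.79e-06), although its hybrids, at 34.7 ± 2.46 CPM (SD, n = 4), lay below the CPM midpoint of 46.6 CPM. Mal-B2, a maltase gene, stood at 46.2 to 57.2 CPM (median 54.4) with 0 copies, 27.6 and 24.7 CPM in SU26xZI418N and 30.8 and 37.8 CPM in SU58xZI418N, and 4.54 and 4.4 CPM in ZI418N (departure 0.98 ± 0.11, adjusted p = 0.00292; CPM midpoint 28.6 CPM). Among the departures of named genes, those of mthl9 and Mal-B2 held in every alternative run for departures, which did not include genotype sums. The count was lower without either ZI418N library.

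Rh50, an ammonium transporter gene, and CG7402 stayed near the 0-copy range in hybrids and were low in ZI418N. Rh50 stood at 9.85 to 22.4 CPM (median 19) with 0 copies, 9.86 and 10 CPM in SU26xZI418N and 25.8 and 9.03 CPM in SU58xZI418N, and 0.227 and 0.0277 CPM in ZI418N (departure 3.16 ± 0.45, edgeR adjusted p = 0.0134). CG7402 stood at 35.4 to 68.1 CPM (median 56.7), 37.4 and 32 CPM in SU26xZI418N and 51.1 and 45.3 CPM in SU58xZI418N, and 3.63 and 2.74 CPM (departure 1.66 ± 0.21, adjusted p = 0.00583). In both genes the hybrids overlapped the 0-copy libraries and lay far above ZI418N, and both departures lost their call without either ZI418N library.

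In 3 of the 20 genes every hybrid library exceeded all others. All 20 had been called for lying above the log2 midpoint at 1 copy, a choice that favours this pattern. Its share over all tested genes was not counted. CG6357 stood at 48.6 to 65.5 CPM (median 58.7) with 0 copies, 90.5 and 78.9 CPM in SU26xZI418N and 103 and 119 CPM in SU58xZI418N, and 69.5 and 53.3 CPM in ZI418N (departure 0.72 ± 0.12, edgeR adjusted p = 0.0433), a gene with no called trend (adjusted p = 0.346) whose departure lost its call in 11 alternatives. CG2247 stood at 10.2 to 13.2 CPM (median 12), 36.3 and 40.7 CPM in SU26xZI418N and 30.8 and 31.9 CPM in SU58xZI418N, and 25.9 and 23.1 CPM. CG33502 was almost uncounted with 0 copies (at most 0.0318 CPM), at 1.82 to 2.53 CPM in the hybrids and at 1.16 and 1.74 CPM in ZI418N.

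Some transcripts were near zero at one end. Chosen after their values were seen, the genes under 0.5 CPM in every library of one end and at 2 CPM or more in all other libraries were CG18530, low with 0 copies, and CG16800, Rh50, Reepl1 and CG9967, low with 2 copies. CG18530 stood at 0 to 0.242 CPM with 0 copies, 2.31 to 6.18 CPM with 1 and 3.04 and 3.71 CPM with 2, so that its hybrids overlapped ZI418N. CG16800 stood at 6.48 to 7.95 CPM with 0 copies and 2.9 to 4.38 CPM with 1, and had no count in ZI418N. Reepl1 and CG9967 stood at 8.13 to 10.4 and 3.53 to 6.57 CPM with 0 copies, 3.25 to 4.76 and 2.08 to 3.39 CPM with 1, and at most 0.0554 and 0.199 CPM with 2.

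Each Swedish line gave its own step from 0 to 1 copy, with no library in common. SU26xZI418N differed from SU26xSU26 in 2115 genes (22.7%), 1043 higher (11.2%) and 1072 lower (11.5%), and SU58xZI418N from SU58xSU58 in 236 genes (2.54%), 138 higher (1.48%) and 98 lower (1.05%), by edgeR's quasi-likelihood test with a mean per genotype. The genes called in the same direction in both steps numbered 128, 77 higher and 51 lower, which is 6.05% of the SU26 calls and 54.2% of the SU58 calls. They include spz (log2 fold changes of 5.57 ± 0.57 on SU26 and 3.98 ± 0.53 on SU58), Cyp6t1 (1.89 ± 0.10 and 1.77 ± 0.10), PLCXD (1.52 ± 0.18 and 2.33 ± 0.18), Prip (0.58 ± 0.09 and 0.61 ± 0.09), mthl9 (-1.50 ± 0.11 and -1.29 ± 0.11) and CG42846 (-1.66 ± 0.18 and -1.69 ± 0.18). Without SU26xZI418N replicate 2, the library with germ line transcripts, the counts were 729 and 338, with 139 shared in direction (19.1% and 41.1%). Without both doubted libraries they were 334 and 82, with 46 shared. The SU26 count was 1258 and 549 without SU26xSU26 replicate 1 and 2, and 1254 and 1249 without SU58xSU58 replicate 1 and 2, which enter the shared spread. The SU58 count was 64 and 78 without SU58xSU58 replicate 1 and 2, and 83 and 108 without SU58xZI418N replicate 1 and 2.

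The steps differed from each other in 113 genes (1.21%), with the SU26 step the more positive in 48 (0.516%) and the more negative in 65 (0.699%), by edgeR's test of the difference itself. Ldsdh1, a lipid droplet dehydrogenase gene, stood at 19.1 and 21.8 CPM in SU26xSU26 and 24.6 and 22.6 CPM in its ZI418N hybrid, and at 2.21 and 1.75 CPM in SU58xSU58 and 22.4 and 25.5 CPM in its ZI418N hybrid. The hybrids of both lines were alike and SU58xSU58 alone was low, with a difference of -3.39 ± 0.22 on the log2 scale (adjusted p = 0.000431). CG11155, on chromosome 4, showed the same form: 166 and 154 CPM in SU26xSU26, 200.01 and 185 CPM in SU26xZI418N, 3.87 and 3.69 CPM in SU58xSU58 and 112 and 118 CPM in SU58xZI418N (difference -4.66 ± 0.15, adjusted p = 1.45e-06). Of the 8 genes named by this test, the differences of CG11155 and Ldsdh1 held in every alternative run for step differences. Those runs did not include genotype sums.

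In the opposite direction, CG31997 rose on both backgrounds and further on SU26, from 2.78 and 2.13 to 47.5 and 38 CPM, against 14.3 and 14.6 to 55.2 and 58.9 CPM on SU58 (difference 2.15 ± 0.31, edgeR adjusted p = 0.017). Pex11c, a peroxin gene, went from 29 and 36.3 to 117 and 85.9 CPM on SU26 and from 139 and 126 to 73.6 and 109.6 CPM on SU58 (difference 2.17 ± 0.38, adjusted p = 0.0375). In 5 genes both steps were called with opposite signs: Dph1, CG9312, CG7720, GstE7 and CG1575. GstE7, a glutathione S-transferase gene, went from 134 and 139 to 81 and 55.5 CPM on SU26 and from 22.6 and 17.6 to 98.9 and 69.8 CPM on SU58 (difference -3.06 ± 0.42, adjusted p = 0.0139), so that the hybrids overlapped while the Swedish lines did not. The count of 113 was 57 without SU26xZI418N replicate 2, 1358 without its replicate 1, 29 without SU26xSU26 replicate 2, 3 and 24 without SU58xSU58 replicate 1 and 2, 27 and 49 without SU58xZI418N replicate 1 and 2, and 6 without both doubted libraries.

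**Figure D5:**
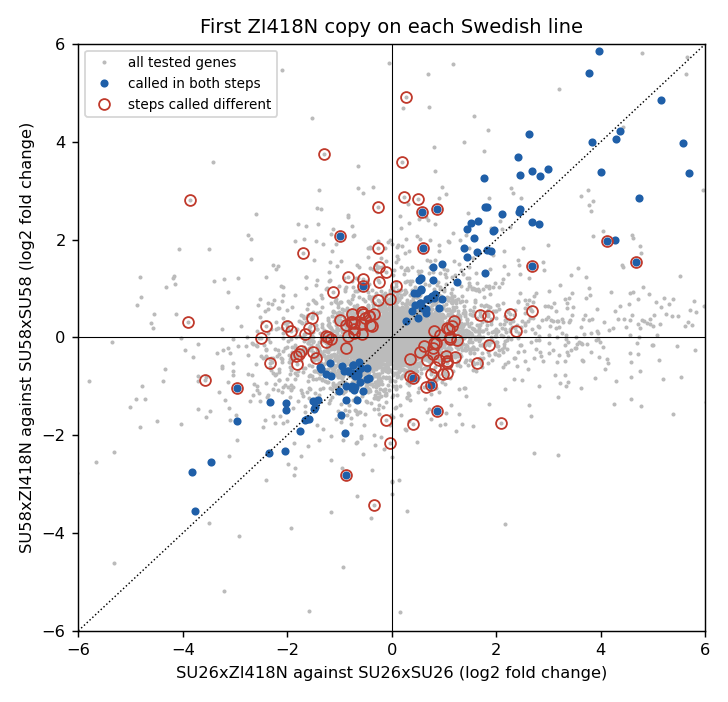
Log2 fold change of the first ZI418N copy on SU58 (vertical axis) against that on SU26 (horizontal axis) for each tested gene, with genes called in both steps in blue, genes whose steps were called different circled in red, and a dotted line where the steps are equal; 110 genes lie outside the axes. Of the genes called in both steps, 128 have the same sign and 5 opposite signs.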

How the data were processed

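Poly-A RNA of female Malpighian tubules was sequenced in 12 libraries, 2 for each of 6 genotypes, as 2 biological replicates per the labels. The authors deposited a whole-number count per gene and a gene length, per the file headers; the lengths were not used. The aligner, counter and genome build were not given in the sources used here. Genes carry FlyBase identifiers or symbols in the deposited files, and positions come from Ensembl's BDGP6 annotation, whose build may differ from that of the counts. Allele-specific counts were not analysed here.

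Counts were scaled with TMM and tested with edgeR 4.0.16 (quasi-likelihood, R 4.3.3) after filterByExpr by genotype kept 9302 of 13919 genes, with Benjamini-Hochberg adjustment over all 9302 and a threshold of 0.05. The trend used the number of ZI418N copies as a number in all 12 libraries. The 1-copy departure used copies as a factor, the 2 against 0 copies test the 8 libraries with those copies, and the steps on SU26 and SU58 a mean per genotype, so that all libraries share one estimate of the spread. Positions used log2 CPM with a prior count of 2 or the CPM itself. Standard errors are approximate, from the log2 change and its F statistic. Depth was 30834175 to 43479929 counts per library, and p-values measure the spread between libraries of each genotype or copy number, which covers 6 genotypes only.

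Named genes were the 10 largest fully ordered rises and falls with a mean of at least 10 CPM, up to 3 called members of each of 27 gene lists, up to 4 genes in each direction from the tests of departures and of step differences, and 4 genes of earlier population studies; other genes were named as members of a list or are said to be chosen after their values were seen. The members and lists were chosen with earlier results of these data known. Alternatives were DESeq2 1.42.0 and its size factors, no filter, a replicate block, each library or both doubted libraries left out, genotype sums, a covariate for SU58, genotype means and leaving out the Swedish hybrid. Genotype sums, the covariate, genotype means and leaving out the Swedish hybrid were run for the trend only. The fits were also run on simulated counts whose unchanged genes had no spread between genotypes. That run cannot show false calls that arise from such spread.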

Additional observations from a re-analysis of the deposited data

Results flagged for a closer look

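Within a copy number, 18 library values stood apart from the rest of their group by Dixon's gap ratio, among 188 groups tested, and chance flags about 1 in 20 groups. The groups included genes described after their values were seen, among them osk, yl, CycB and DptA. The chance rate does not hold for such genes. SU26xZI418N replicate 2 was the library in 7 of them, with 19.9 CPM of spz (group median 7.69), 34.2 CPM of Cyp6t1 (39.3), 533 CPM of RpS19a (579.98), 474 CPM of RpL27 (538), 111 CPM of osk (2.95), 145 CPM of yl (5.68) and 282 CPM of CycB (8.04). The germ line genes osk, yl and CycB were high in that library; 84.1% of the exon bases of osk lie in another gene. SU58xSU58 replicate 1 stood apart in Vm26Ab at 68.1 CPM (0.0606) and osk at 1.45 CPM (0.213), and SU58xSU58 replicate 2 in a at 5.31 CPM (3.43). SU26xSU26 replicate 1 stood apart in fiz at 2894 CPM (3782), LysD at 1.02 CPM (0.301) and DptA at 12.7 CPM (1.31). SU26xSU58 replicate 2 did so in Drs at 149 CPM (63.2) and RpL27 at 536 CPM (593). Among the other hybrid libraries, SU58xZI418N replicate 1 held 25.8 CPM of Rh50 (9.94), SU58xZI418N replicate 2 0.401 CPM of Vm26Ab (0.0259) and SU26xZI418N replicate 1 86.8 CPM of CG6293 (96.1).

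The change from 0 to 1 copy differed between the SU26 and SU58 backgrounds, by edgeR's quasi-likelihood test of the difference, in 11 of the named genes and in 1.21% of all tested genes. Ace, CG11155, Ldsdh1, GstE7, CG9192, CG31997, Pex11c and CG1575 were named through this same test, so their calls were fixed by the choice. Cyp6a16, CG16898 and CG13308 were named for their trend. The difference, SU26 minus SU58 on the log2 scale, was 1.22 for Cyp6a16 (adjusted p = 0.00865), -2.34 for CG16898 (adjusted p = 0.00865), 1.78 for CG13308 (adjusted p = 0.0111), 2.15 for Ace (adjusted p = 0.0122), -4.66 for CG11155, -3.39 for Ldsdh1, -3.06 for GstE7, -2.95 for CG9192 (adjusted p = 0.0377), 2.15 for CG31997, 2.17 for Pex11c and 2.37 for CG1575 (adjusted p = 0.0194). Ace rose on SU26 from 6.94 and 8.15 to 52.8 and 44.6 CPM and stood at 30.4 and 28.1 and 40.4 and 44.6 CPM on SU58, before and after.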

How the results depend on the processing

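Leaving out single libraries gave 838 to 1766 trend calls, 6 to 22 departures, 360 to 1359 differences between 2 and 0 copies, 549 to 2752 steps on SU26, 64 to 338 steps on SU58 and 3 to 1358 step differences; each extreme is the lowest or highest count over the libraries left out. Trend calls were 127 with genotype sums (6 units), 2501 with genotype means and a linear contrast, and 990 without the Swedish hybrid. DESeq2's Wald test called 79 departures, 1820 differences between 2 and 0 copies, 460 steps on SU58 and 768 step differences. Without both doubted libraries there were 334 steps on SU26, 82 on SU58 and 6 step differences. The causes were not tested. Other alternatives for these counts stayed within 1.5 times, and the median log2 positions of 1 copy moved by less than their SD over the 4 hybrid libraries, which belong to 2 genotypes, and ranged over single libraries left out from 0.61 to 0.66 and from 0.35 to 0.41. A replicate block gave 1452 trend calls and ended 5 of the 94 calls on named genes. Over 15 pairs of groups the deviations of same-numbered libraries correlated at -0.22 to 0.32, over 0.1 in 4. With 2 libraries per genotype these values cannot settle whether the numbers pair libraries. Of the 94 named genes, 20 lost their trend call without ZI418NxZI418N replicate 1, 14 without its replicate 2, 65 with genotype sums and 17 without the Swedish hybrid; 0 reversed. With 2 libraries of 1 line, the 2-copy level is the least certain.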

Other observations

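Some expressed genes lay near or outside an end at 1 copy. They were chosen after their values were seen, among the 161 genes that differed at least 2-fold between 2 and 0 copies and had a mean of at least 10 CPM. In 9 of these the mean log2 level with 1 copy lay under 0.1 or over 0.9 of the way from 0 to 2 copies. The transcription factor gene chinmo stood at 6.31 and 5.24 CPM in SU26xSU26, 15.7 and 17.8 CPM in SU58xSU58 and 11 and 9.3 CPM in SU26xSU58, at 4.35 and 3.93 CPM in SU26xZI418N and 9.28 and 11.3 CPM in SU58xZI418N, and at 41 and 53.6 CPM in ZI418N, so that its hybrids on SU26 lay below, and those on SU58 within, the range of the Swedish libraries. CG5399 stood at 242 and 321 CPM in SU26xSU26, 349 and 464 CPM in SU58xSU58 and 201 and 259 CPM in SU26xSU58, 37.4 and 34.8 CPM in SU26xZI418N and 101 and 147 CPM in SU58xZI418N, and 136 and 61.8 CPM in ZI418N. CG5399 hybrids on SU26 lay below both ZI418N libraries. CycE, the cyclin E gene, stood at 8.23 and 6.14 CPM in SU26xSU26, 14.1 and 13.4 CPM in SU58xSU58 and 10.8 and 11.6 CPM in SU26xSU58, 6.15 and 58.1 CPM in SU26xZI418N and 8.95 and 9.91 CPM in SU58xZI418N, and 3.66 and 3.99 CPM in ZI418N, with its highest value in the library that also held the highest germ line sum; the part of that library's other cells in this value was not tested.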
